A study of Mus musculus with 8 samples.

Results

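The nuclear genes of oxidative phosphorylation were examined in cardiac mesenchymal stromal cells (cMSCs) of young and aged mice. The genes were taken by name alone: every array probe whose gene name starts with Nduf followed by a, b, c, s or v, with Uqcr, with Cox4 to Cox8 or with Atp5, or is Sdha, Sdhb, Sdhc, Sdhd, Cycs or Cyc1. This gave 147 probes for 94 gene names, out of 36994 names on the array, and 93 of the 94 were tested among 20070 genes with a usable probe. The 94 names hold 75 ubiquitous subunits (36 of complex I, 4 of complex II, 9 of complex III, cytochrome c, 10 of complex IV and 15 of complex V), 3 muscle isoforms and 5 other tissue isoforms of complex IV, 7 complex I assembly factors, Cox7a2l, Atp5s and Atp5sl, and 1 pseudogene of Atp5c1.

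RNA came from 4 pools of young mice (5 months by the labels) and 4 pools of aged mice (20 months), all male and of the C57BL/6 background, with 3 mice to a pool by the design text, although the code in the title of aged replicate 4 may stand for fewer mice. cMSCs are fibroblast-like stromal cells of the heart, taken here from digested ventricles and sorted by flow cytometry for Sca-1 and PDGFRα and against the leukocyte antigen CD45 and the endothelial antigen CD31. Pools are named by the numbers in their labels, young replicates 2, 3, 4 and 5 and aged replicates 1, 2, 3 and 4. Every pool had an Agilent mouse array with 1 colour of its own. A level below is the log2 of a probe's processed signal minus the log2 of the 75th percentile of all signals on that array, so that 0 stands for that percentile.

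Oxidative phosphorylation turns the energy of nutrients into ATP at the inner mitochondrial membrane. Complex I (NADH dehydrogenase) and complex II (succinate dehydrogenase) pass electrons to complex III, cytochrome c carries them to complex IV (cytochrome c oxidase), and complex V (ATP synthase) uses the resulting proton gradient. All complexes but complex II combine subunits from the nucleus with subunits encoded by mitochondrial DNA. Several small subunits of complex IV exist as isoforms of different genes: Cox6a2, Cox7a1 and Cox8b belong to heart and skeletal muscle, and Cox6a1, Cox7a2 and Cox8a take their place in other tissues.

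As a check of the sort, the 10 cMSC marker genes, among them Pdgfra and Ly6a (Sca-1), were well above background on all 8 arrays. Some of their levels differed between the groups, as given further below. Of the markers against which cells were sorted, Pecam1 (CD31) had levels from -2.56 to -2.06 and Ptprc (CD45) from 1.25 to 1.57, both well above background on all arrays and with overlapping groups. The share of spots well above background was between 57.8% and 63.4%, and no spot was saturated. The number of pools, 4 in each group, limits the precision. By the design text each pool is of different mice, so that the spread between them is biological as well as technical.

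Of the 93 genes tested, Cox7a1 alone passed an adjusted p of 0.05 in limma, and it was lower in aged cMSCs. No member was higher. Over all 20070 genes, 2.37% passed as higher in aged cMSCs and 0.792% as lower, so that 1 of 93 is near the background. The unadjusted p was under 0.05 for 3 of the 93 members, a smaller share than the 2842 of 20070 over all genes. These 3 were Cox7a1, Cox6a2 and Cox6b2, all isoforms of complex IV with a restricted tissue pattern, and they were the only members whose young and aged pools did not overlap. Among all genes, 6.68% had aged pools entirely above the young pools and 4.07% entirely below. With the cutoffs that the paper used (unadjusted p up to 0.01, log2 fold change past 0.5), Cox6b2 counted as higher and Cox7a1 as lower. Of all genes, 647 (3.22%) counted as higher and 254 (1.27%) as lower. The paper reported fewer genes in each direction at these cutoffs, so that these counts are not its own list. The median log2 fold change was -0.03 over the 93 members and 0.0017 over all genes.

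**Figure D1:**
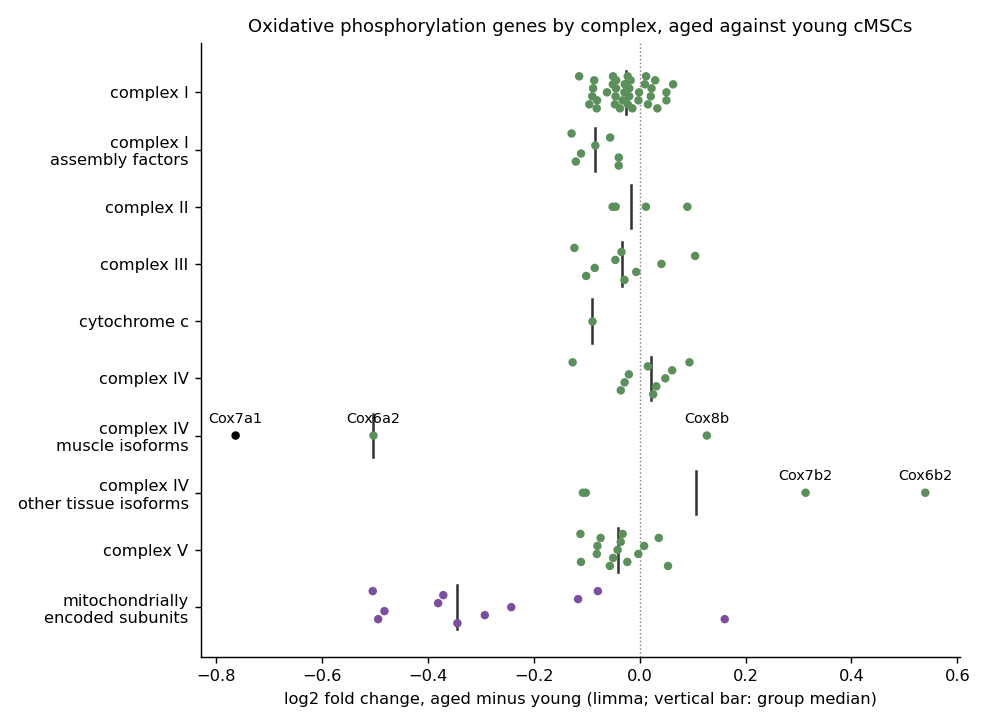
Log2 fold change (aged minus young cMSCs) of each tested oxidative phosphorylation gene, with 1 point per gene, 1 row per complex or gene group and a vertical bar at the median of the row. The black point is Cox7a1, the only gene past an adjusted p of 0.05; the ubiquitous subunits lie between -0.13 and 0.10, and the mitochondrially encoded subunits have a median of -0.34.

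Among the muscle isoforms, Cox7a1 was lower in aged cMSCs, Cox6a2 had a lower mean and did not pass the test, and Cox8b had overlapping levels. Cox7a1 encodes the muscle form of a small subunit of complex IV. Its level was 1.34, 1.42, 1.33 and 1.09 in young replicates 2 to 5, and 0.72, 0.69, 0.49 and 0.23 in aged replicates 1 to 4. All aged pools lay below the lowest young pool. The log2 fold change was -0.76 (SE 0.13, limma adjusted p = 0.0173), a level in aged cMSCs of 59.0% of that in young cMSCs, with a 95% interval of 48.2% to 72.2%. The difference was -0.78 between pools of the same slide row in the first row and -0.74 in the second. The adjusted p was above 0.05 without young replicate 2 (0.0521), young replicate 3 (0.0609), young replicate 4 (0.0537) or aged replicate 3 (0.0575), with log2 fold changes from -0.75 to -0.72. An exact two-sided permutation test over the 8 pools gave p = 0.0286, the smallest that 4 against 4 pools allow. Any gene whose groups do not overlap has this value, as Cox6a2 and Cox6b2 also had. It therefore only restates the separation of the groups.

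A single probe of 60 bases measured Cox7a1, shown here because the only call among the members rests on it. Per the array files it lies on mm9 chr7:30970337-30970948, a stretch longer than the probe, so that it joins separate exons.

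Cox7a1 probe: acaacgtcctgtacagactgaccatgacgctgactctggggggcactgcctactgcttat

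Cox6a2 encodes the muscle form of subunit VIa of complex IV and was measured by 1 probe at mm9 chr7:135349160-135349219. Its level was -0.19, -0.24, -0.10 and -0.06 in young replicates 2 to 5, and -0.35, -0.39, -0.52 and -1.34 in aged replicates 1 to 4. The groups did not overlap, and aged replicate 4 stood far below all other pools. The log2 fold change was -0.50 (SE 0.21) and the limma adjusted p was 0.315. Without aged replicate 4 it was -0.27, with an adjusted p of 0.202. Cox8b, the muscle form of the smallest subunit, had levels from -0.54 to 0.06 in young and from -0.25 to 0.18 in aged cMSCs. The groups overlapped, with a log2 fold change of 0.13 (95% interval -0.22 to 0.47, limma adjusted p = 0.832).

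The ubiquitous counterparts of these isoforms had overlapping groups. Cox7a2, which fills the place of Cox7a1 in most tissues, had a log2 fold change of -0.02 (95% interval -0.25 to 0.21). Cox6a1 had one of -0.04 (95% interval -0.19 to 0.12) and Cox8a one of -0.03 (95% interval -0.24 to 0.18). The interval of Cox7a1, -1.05 to -0.47, lay outside that of Cox7a2; the difference between these probes was not tested.

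**Figure D2:**
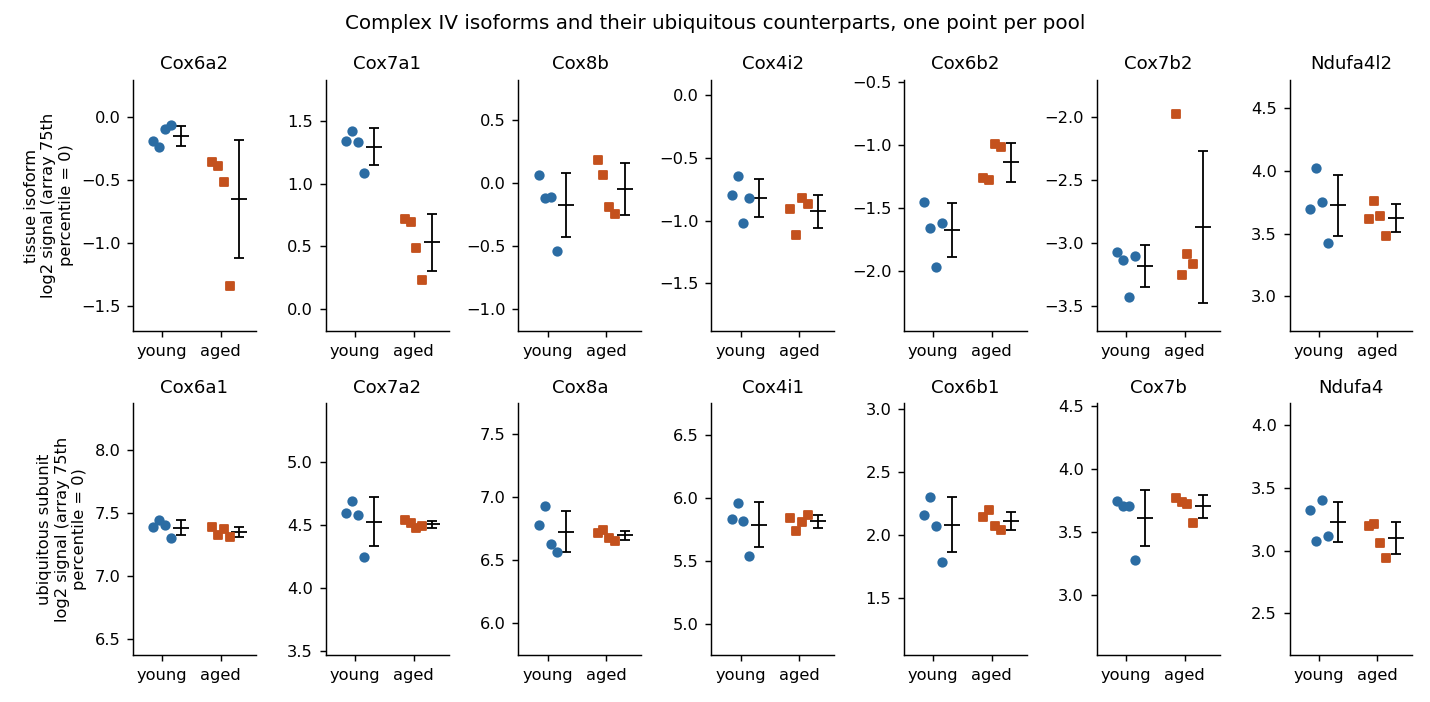
Levels of complex IV tissue isoforms (top) and their ubiquitous counterparts (bottom) in each pool, as log2 signal with the 75th percentile of each array at 0, with 1 point per pool (young left, aged right) and the mean ± SD (n = 4) beside each group; every panel spans 2 log2 units. The aged pools lie apart from the young pools for Cox7a1 and Cox6a2 (lower) and Cox6b2 (higher), and overlap with them in all bottom panels.

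The markers of cardiomyocytes, the cells in which the muscle isoforms are best known, were mostly lower in aged cMSCs as well. Of 20 markers, 17 were tested and 2 passed, both lower in aged cMSCs, where 0.792% of all genes passed as lower. Tnni3 (cardiac troponin I) had a log2 fold change of -0.32 and a limma adjusted p of 0.0422. Pln (phospholamban) had -0.90 and 0.0445. It was well above background on 2 of 4 aged arrays, so that it was tested through the young arrays alone. With only probes well above background on all arrays, 14 markers were tested, and Tnni3 and Tnnc1 passed. Under limma's trend and robust options 0 passed. The number of markers called was 0 without aged replicate 4, as without young replicate 2, 4 or 5 or aged replicate 1 or 3. Pln alone passed without young replicate 3 or aged replicate 2. The log2 fold change was negative for 15 of the 17, with a median of -0.495. Of the 17, 8 had all aged pools below the young pools, where 4.07% of all genes showed this. Some of the 17 passed the filter through 1 group alone. Of the 14 well above background on all arrays, 13 had a negative log2 fold change, with a median of -0.49. All aged pools lay below the young pools for 7 of these 14. The signal summed over the 17 markers, in units of the 75th percentile of the array, ranged from 15.2 to 18.5 in the young and from 8.65 to 14.8 in the aged pools. Ryr2, Nppb and Ckm were not well above background on all arrays of either group, and Myh6, Myl2 and Tnnt2 were on all 8. Aged replicate 4 was the lowest of the 8 pools for 16 of the 17 markers, as for Cox7a1 and Cox6a2. The markers are thus not separate observations. Without aged replicate 4, the marker median was -0.30 and the log2 fold change of Cox7a1 was -0.66 (limma adjusted p = 0.0256). The part of cardiomyocyte RNA in the level of the muscle isoforms was not tested. In sorted bulk samples, fewer cells of a type and less RNA per cell cannot be told apart. Cox7a1 and Cox8b are also known from brown fat. The fat cell markers Ucp1, Adipoq, Cidec and Elovl3 were well above background on none of the arrays, whereas 5 of 11 fat cell markers were tested, with a median log2 fold change of -0.15. Dio2, a deiodinase of brown fat, was higher in aged cMSCs with a log2 fold change of 0.86 (limma adjusted p = 0.00704). Of all genes, 2.37% passed as higher. Fabp4 had a log2 fold change of 0.26, and Prdm16, Cidea and Lep had -0.23, -0.20 and -0.15 without passing the test.

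**Figure D3:**
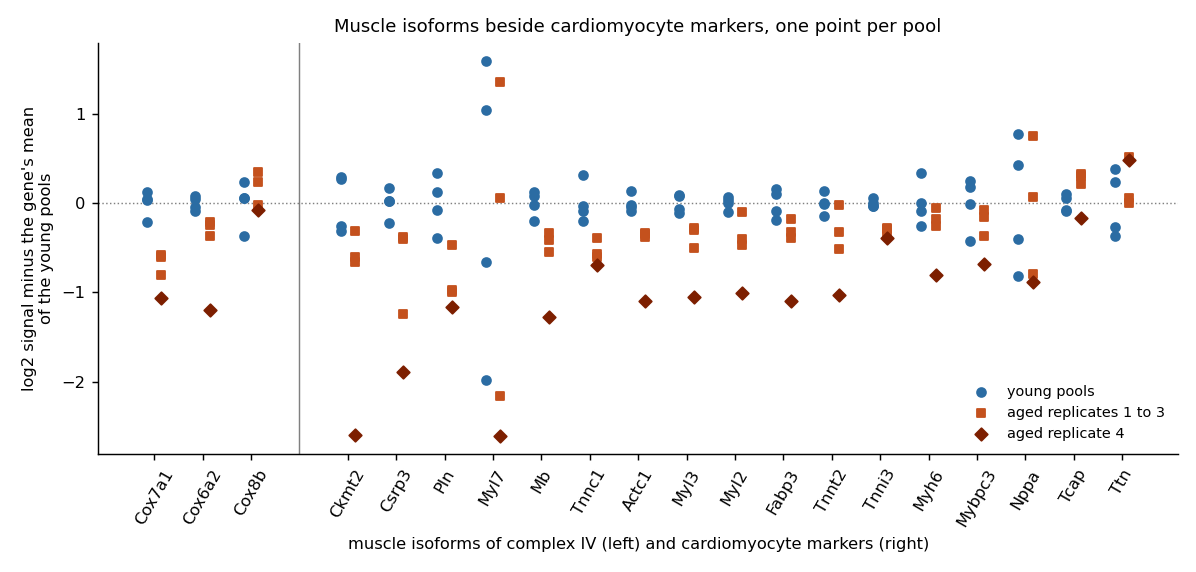
Log2 signal of the complex IV muscle isoforms (left of the line) and 17 cardiomyocyte markers (right), each minus the gene's mean in young cMSCs, with 1 point per pool. All aged pools lie below the young pools for Cox7a1, Cox6a2 and 8 of the 17 markers, and aged replicate 4 (diamonds) is the lowest pool for 16 of them; the groups overlap for Cox8b.

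Of the other tissue isoforms of complex IV, Cox6b2 had the largest difference. Cox6b2, known as the testis form of the subunit that faces the intermembrane space, was measured by 1 probe at mm9 chr7:4703488-4703547. Its level was -1.45, -1.65, -1.97 and -1.62 in young replicates 2 to 5, and -1.26, -1.27, -0.99 and -1.01 in aged replicates 1 to 4. All aged pools lay above the young pools. The log2 fold change was 0.54 (SE 0.13), the limma adjusted p was 0.0648, and the level in aged cMSCs was 145.3% of that in young cMSCs (95% interval 118.8% to 177.7%). The adjusted p was 0.0463 after quantile normalization, 0.0239 after normexp background correction and 0.0412 in the authors' log2 table. Cox6b2 did not pass in the 11 other alternative settings with an adjusted p (up to 0.378). Nor did it pass in any of the 8 fits that left out a pool (0.0635 to 0.174). Its ubiquitous counterpart Cox6b1 had a log2 fold change of 0.03 (95% interval -0.23 to 0.29).

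The remaining tissue isoforms did not pass the test. Cox4i2, the lung and low-oxygen form of subunit IV, had a log2 fold change of -0.11 (95% interval -0.34 to 0.13), beside 0.03 for Cox4i1 (95% interval -0.20 to 0.25). Ndufa4l2, a target of hypoxia signalling related to Ndufa4, had one of -0.10 (95% interval -0.39 to 0.19), beside -0.13 for Ndufa4 (95% interval -0.37 to 0.11). Cox7b2, another testis form, had a level of -1.97 in aged replicate 1 and between -3.43 and -3.07 in all other pools. Its log2 fold change was 0.31 (95% interval -0.30 to 0.93), beside 0.09 for Cox7b (95% interval -0.18 to 0.36). Cox8c, a testis form of the smallest subunit, was well above background on none of the arrays and was not tested.

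The 250 bases before the RefSeq transcription start (GRCm38.p6) are shown for both isoform pairs with the largest differences between their members, Cox7a1 with Cox7a2 and Cox6b2 with Cox6b1. Capitals mark letters of sites known from the promoters of respiratory genes and of muscle genes, on either strand: GCATGCGC (NRF1), CCGGAAG (the ETS factor GABP), AAGGTCA (estrogen-related receptors) and the E-box CANNTG.

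Cox7a1, chr7:30183921-30184170, + strand: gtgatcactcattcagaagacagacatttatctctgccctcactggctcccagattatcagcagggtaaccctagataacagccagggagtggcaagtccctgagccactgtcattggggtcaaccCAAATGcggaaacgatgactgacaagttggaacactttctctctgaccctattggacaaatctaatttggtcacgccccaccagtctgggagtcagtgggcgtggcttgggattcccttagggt
Cox7a2, chr9:79759854-79760103, - strand: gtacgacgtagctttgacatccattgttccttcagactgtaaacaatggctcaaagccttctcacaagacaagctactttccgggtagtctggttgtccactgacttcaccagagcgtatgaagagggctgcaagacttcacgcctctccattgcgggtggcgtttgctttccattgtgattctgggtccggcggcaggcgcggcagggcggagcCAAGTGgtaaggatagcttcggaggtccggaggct
Cox6b2, chr7:4753095-4753344, - strand: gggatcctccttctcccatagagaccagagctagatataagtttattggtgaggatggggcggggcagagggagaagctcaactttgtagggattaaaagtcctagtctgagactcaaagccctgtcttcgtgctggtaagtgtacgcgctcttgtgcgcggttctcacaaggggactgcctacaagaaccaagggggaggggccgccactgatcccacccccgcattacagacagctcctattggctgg
Cox6b1, chr7:30626115-30626364, - strand: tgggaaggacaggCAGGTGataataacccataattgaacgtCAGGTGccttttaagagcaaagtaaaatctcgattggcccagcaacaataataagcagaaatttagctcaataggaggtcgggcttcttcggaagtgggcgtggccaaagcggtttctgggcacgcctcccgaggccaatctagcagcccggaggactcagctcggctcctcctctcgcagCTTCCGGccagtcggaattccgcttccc

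Cox7a1 and Cox7a2 hold 1 E-box each in this window, Cox6b2 holds none of the 4 motifs, and Cox6b1 holds 2 E-boxes and 1 GABP motif, read on the opposite strand as CTTCCGG. No matches overlap in these windows. Promoter entries were matched by symbol for 76 of the 94 members. The NRF1 letters were present in 10 of these 76 windows (13.2%) and in 2.56% of 27025 genes with a window of the same length. They were found before Atp5g2, Atp5k, Atp5l, Cox6a1, Cycs, Ndufa11, Ndufa6, Ndufa8, Ndufaf4 and Sdhb. The GABP letters were present in 13 of the 76 (17.1%) and in 7.83% of all, the estrogen-related receptor letters in 5 (6.58%) and in 4.7%, and the E-box in 49 (64.5%) and in 69.3%. These are descriptions of letters, not of bound factors.

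The ubiquitous subunits had nearly equal levels in aged and young cMSCs in all complexes. None of the 75 passed the limma test, none had an unadjusted p under 0.05 and none had groups that did not overlap. Their log2 fold changes ran from -0.13 (Ndufa4) to 0.10 (Uqcrfs1), that is from 91.6% to 107.5% of the young level. The 95% intervals of all 75 lay between 75.2% and 130.6% of the young level. Each interval holds for 1 subunit and was not adjusted for their number, so that the range is no joint bound on all 75. The log2 fold change was negative for 52 of them and positive for 23, with a median of -0.03, against 49.6% negative over all genes. The subunits are not separate observations, since the same pools were the lowest of their groups for most of them, as given further below. This also holds for the counts of signs within each complex.

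In complex I, 26 of 36 subunits had a negative log2 fold change, with a median of -0.03. Of the conserved core subunits, which hold the flavin and the iron-sulphur clusters, several had log2 fold changes near 0. Ndufv1, the NADH-binding subunit, had one of -0.0021 (95% interval -0.17 to 0.16), Ndufv2 one of 0.02 and Ndufs1 one of 0.02. The lowest and highest values of the complex were both from core subunits, Ndufs7 with -0.11 (95% interval -0.33 to 0.10) and Ndufs3 with 0.06 (95% interval -0.11 to 0.24). The accessory subunits, which surround that core, had values from -0.09 (Ndufc1) to 0.05 (Ndufb4). All 7 complex I assembly factors had negative values, with a median of -0.08 and a lowest value of -0.13 for Ndufaf4, and the smallest adjusted p among them was 0.71.

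In complex II, the flavoprotein Sdha had a log2 fold change of 0.09 (95% interval -0.11 to 0.29) and the iron-sulphur subunit Sdhb one of -0.05 (95% interval -0.27 to 0.17). In complex III, 7 of 9 subunits had a negative value. Uqcrfs1, the Rieske iron-sulphur protein, was the highest of the complex with 0.10 (95% interval -0.11 to 0.32), and Uqcr11, a small accessory subunit, the lowest with -0.12 (95% interval -0.41 to 0.17). Cyc1 (cytochrome c1) had one of -0.08, and Cycs (cytochrome c), the carrier between complexes III and IV, one of -0.09 (95% interval -0.37 to 0.19). Cox5a, a subunit on the matrix side of complex IV, had one of 0.02 (95% interval -0.23 to 0.26). Cox7b was the highest of the ubiquitous subunits of complex IV and Ndufa4 the lowest, with the values given above.

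In complex V, 12 of 15 subunits had a negative log2 fold change, with a median of -0.04. The subunits of its catalytic head, which makes ATP, were all among these 12, although Atp5e stood at -0.0023. Atp5b, the catalytic beta subunit, had levels of 6.09, 6.04, 6.15 and 5.85 in young replicates 2 to 5 and 5.99, 5.95, 5.91 and 5.84 in aged replicates 1 to 4. The groups overlapped through young replicate 5, with a log2 fold change of -0.11 (95% interval -0.31 to 0.09). Atp5a1 (alpha) had one of -0.05, Atp5c1 (gamma) one of -0.08 and Atp5d (delta) one of -0.11, the lowest of the complex. Atp5g2, a gene of the membrane ring, was the highest with 0.05 (95% interval -0.17 to 0.28).

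Young replicate 5 stood apart within its group. It was the lowest young pool for 63 of the 75 ubiquitous subunits and the lowest of all 8 pools for 44 of them. Aged replicate 4 was the lowest aged pool for 59. As the median over these subunits of the level minus its mean over all pools, young replicates 2 to 5 had 0.06, 0.06, 0.07 and -0.14, and aged replicates 1 to 4 had 0.04, 0.05, -0.04 and -0.09. The range within the young group was wider than the difference between the groups. Without young replicate 5 the median log2 fold change of the 75 subunits was -0.08, and without aged replicate 4 it was 0.0038. Young replicate 5 and aged replicate 4 were also the lowest pools for the mitochondrial ribosomal proteins, with -0.15 and -0.13.

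**Figure D4:**
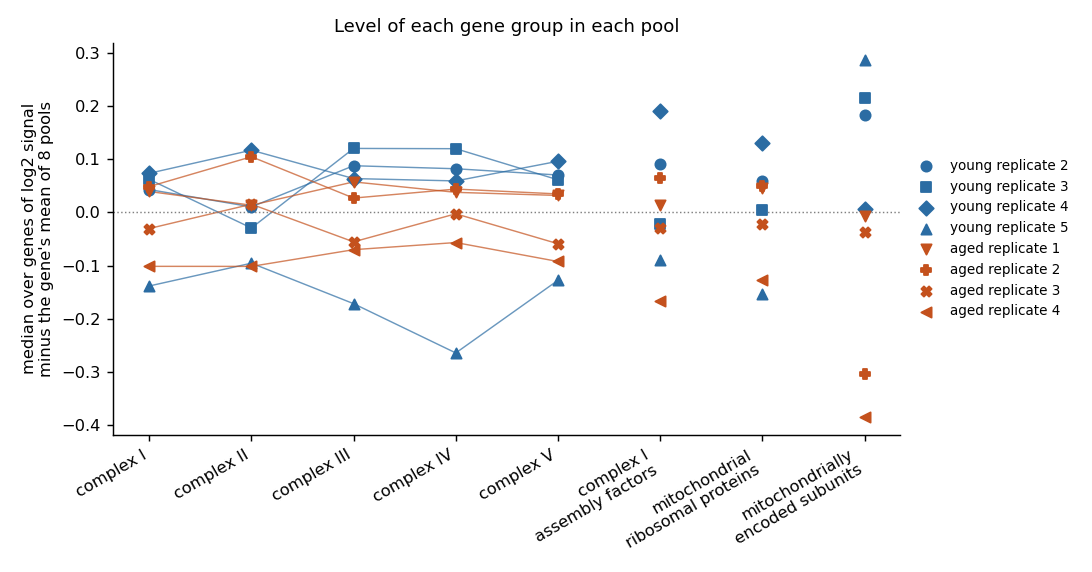
Median over the genes of each group of the log2 signal minus the gene's mean over the 8 pools, by pool (blue young, orange aged). For complexes I to V, young replicate 5 and aged replicate 4 lie at the bottom and the groups overlap; for the mitochondrially encoded subunits, the young pools lie between 0.01 and 0.29 and the aged pools between -0.38 and -0.01.

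Several probes were usable for 33 of the members, and these agreed in giving no call. The range of log2 fold changes between the probes of a gene had a median of 0.05 and was widest for Ndufa3, at 0.32. Over all 135 usable member probes tested as probes, Cox7a1 was again the single call.

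The partner subunits encoded by mitochondrial DNA stood lower in aged cMSCs than the nuclear subunits did, but none passed the limma test over all genes. Of 11 such transcripts on the array, 10 had a negative log2 fold change, the median was -0.34, and 7 had an unadjusted p under 0.05. Over all genes, 2842 of 20070 had such a p. In 6 of the 11 all aged pools lay below all young pools, where 4.07% of all genes showed this. ND4L, a membrane subunit of complex I, had levels of 6.30, 6.31, 6.10 and 6.28 in young replicates 2 to 5 and 5.93, 5.68, 5.89 and 5.47 in aged replicates 1 to 4. Its log2 fold change was -0.50 (SE 0.12, limma adjusted p = 0.0598), 70.5% of the young level. ND2, a proton-pumping subunit of complex I, had levels of 7.31, 7.26, 7.04 and 7.29 in young and 6.92, 6.57, 6.93 and 6.50 in aged cMSCs, in the same order of replicates. Its log2 fold change was -0.49 (SE 0.12, limma adjusted p = 0.0778).

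The same separation was seen for ND5 (-0.48), ND3 (-0.38), ATP8 (-0.37) and ND1 (-0.34). The groups overlapped for ND4 (-0.29), CYTB (-0.24), COX1 (-0.12) and COX2 (-0.08), and for ND6 (0.16), the only subunit encoded on the light strand. Complex I subunits, which make up most of the 11 transcripts, had 5 of the 6 separations, and ATP8 of complex V had the other. COX1 and COX2, the catalytic core of complex IV, had the values nearest to 0 of the negative ones. The array files place the ND3 probe on mm9 chromosome 1, where the nuclear genome holds a copy of mitochondrial DNA, so that its signal is uncertain. The median ranged from -0.39 to -0.27 over the fits that left out a pool, none of which called any of the 11. The adjusted p passed under limma's trend and robust options for ND4L, ND2, ND5 and ATP8, after normexp background correction for ND4L and ATP8, and with array weights and in the authors' log2 table for ND4L. Summed over the 11 transcripts, the signal ranged from 1341 to 1736 times the 75th percentile in the young and from 1167 to 1516 in the aged pools, and overlapped. As the median over the 11 transcripts of the level minus its mean over all pools, young replicate 5 was the highest pool with 0.29, whereas it was the lowest for the nuclear subunits.

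**Figure D5:**
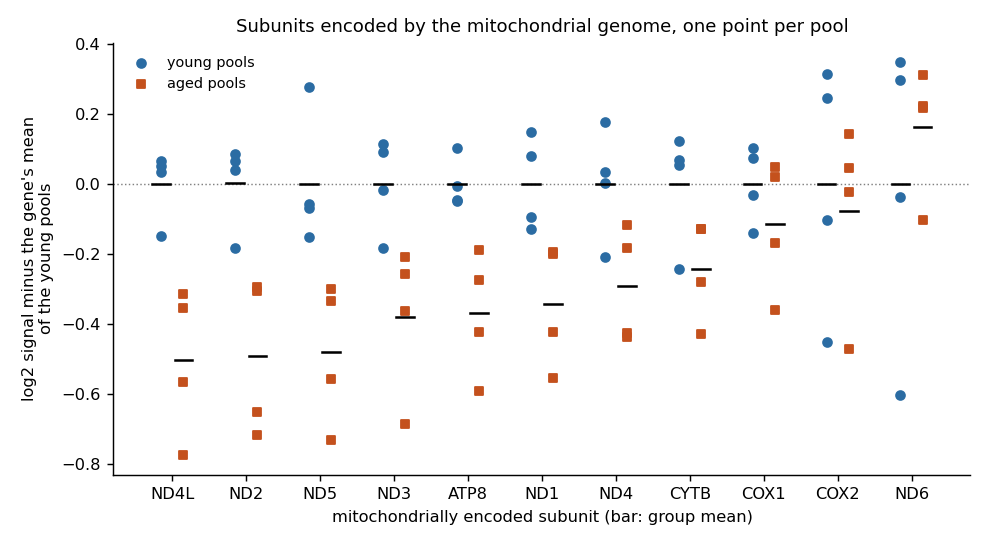
Log2 signal of 11 subunits encoded by mitochondrial DNA, each minus the gene's mean in young cMSCs, with 1 point per pool and a bar at each group mean. The aged pools lie wholly below the young pools for ND4L, ND2, ND5, ND3, ATP8 and ND1, with mean differences from -0.50 to -0.34.

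The genes that build and control the respiratory chain gave no call. Of 40 assembly factors outside the naming rule, 39 were tested and none passed, with 2 unadjusted p values under 0.05 (2842 of 20070 over all genes). Their median log2 fold change was 0.01. Cox17, a copper chaperone of complex IV, had the lowest value at -0.37 (95% interval -0.97 to 0.22), with young replicate 5 at 7.57 and all other pools between 6.18 and 6.79. Cox16, another complex IV factor, had the highest at 0.23 (limma adjusted p = 0.282), with all aged pools above the young pools. Of 21 regulators of mitochondrial biogenesis none passed, with 3 unadjusted p values under 0.05 (2842 of 20070 over all genes). Ppargc1a, the coactivator PGC-1 alpha, had a log2 fold change of -0.09 (95% interval -0.57 to 0.40), Nrf1 one of 0.05, Gabpa one of -0.10, Esrra one of -0.08 and Tfam, which packages mitochondrial DNA, one of 0.00063 (95% interval -0.21 to 0.21). Hif1a, the oxygen-sensing factor, had all aged pools above the young pools and a log2 fold change of 0.34 (limma adjusted p = 0.0938). Among all genes, 6.68% had aged pools entirely above the young pools. Esrrg was well above background on 4 young and 2 aged arrays, with overlapping groups, and did not pass the test (limma adjusted p = 0.344).

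Of 77 mitochondrial ribosomal proteins, which translate the mitochondrially encoded subunits, none passed the limma test and the median was -0.03. An unadjusted p under 0.05 was seen for 3 of them (2842 of 20070 over all genes). Mrps6 was the lowest at -0.47 (limma adjusted p = 0.0769), with all aged pools below the young pools, where 4.07% of all genes showed this. Mrpl35 followed at -0.41 with overlapping groups. Of 20 genes of the citric acid cycle list, Pdk1, a kinase that holds pyruvate back from the cycle, passed as higher in aged cMSCs. It was the 1 call of the list, where 2.37% of all genes passed as higher. It was also the only gene of the list with an unadjusted p under 0.05. Its level was -0.45, -0.60, -0.35 and -0.51 in young replicates 2 to 5 and -0.11, -0.10, 0.11 and -0.01 in aged replicates 1 to 4. The log2 fold change was 0.45 (SE 0.09, limma adjusted p = 0.0316). The median of that list was -0.04.

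Some markers of other cell types differed between the groups. Over all genes, 2.37% passed as higher in aged cMSCs and 0.792% as lower. The median log2 fold change was 0.74 over 5 of 8 neutrophil markers, of which S100a9, Camp and Ly6g were higher in aged cMSCs, and their summed signal ranged from 1.28 to 1.93 in young and from 2.95 to 9.74 in aged pools. The value of 9.74 is that of aged replicate 4, with 2.95 to 3.68 in the other aged pools, and that pool also had the highest summed macrophage signal, 12.2. It was the lowest pool for Cox7a1, Cox6a2 and most cardiomyocyte markers. The median was 0.21 over 9 of 12 macrophage markers, with Cd14 higher, -0.22 over 13 mural cell markers and 0.05 over 8 endothelial markers, with no call in the last pair. Cnn1 and Myh11 had the largest values among the mural markers (-1.03, well above background on 3 of 4 aged arrays, and -0.62), and Vwf and Tek among the endothelial markers (0.37 and -0.33). The median was 0.25 over 4 of 9 mesothelial markers. Of these, Dmkn was higher and 2 had negative values (Msln -0.63, well above background on 3 of 4 aged arrays). Of the 10 cMSC markers, Thy1 was lower at -0.71 (limma adjusted p = 0.0476). Ly6a (Sca-1) had the highest value at 0.67, without passing the test. The median of these 10 was -0.12, with 8 negative and 2 positive values. Aged pools lay entirely below the young pools for 4 of them (4.07% of all genes) and entirely above for 1 (6.68%). Young replicate 5, the lowest pool for most nuclear subunits, also had the lowest summed macrophage signal, 6.03 against 7.90 to 12.2 in all other pools. The part of these cells in the levels above was not tested.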

How the data were processed

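RNA of sorted cMSCs from 4 young and 4 aged pools was measured on 8 Agilent SurePrint G3 arrays with 1 colour, on 1 slide in 2 rows of 4. Groups and pool numbers came from the sample titles. The authors deposited scanner output, extracted with Agilent Feature Extraction 10.10.1.1 per the submitters' processing notes, in which values are intensities with the background subtracted and no normalization between arrays. A further table that the authors deposited holds log2 values, with limma named in those notes. Each of its columns matched its own array best, and it served as an alternative.

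Control spots and outlier spots were left out, each array was scaled to its 75th percentile, and replicate spots were averaged on the log2 scale. A probe had to be well above background on every measured array of a group, and a gene with several such probes took the brightest. This kept 135 of 147 member probes. Of 56605 probes, 33889 were named through an accession table of GRCm38.p6, used here for names and promoters alone. Probe positions (mm9) come from the scanner output. The test was limma's (version 3.58.1, R 4.3.3, lmFit with eBayes, 6 residual and 2.53 prior degrees of freedom, Benjamini-Hochberg over 20070 genes, threshold 0.05). The test was checked on simulated data. Python 3.11.15 with pandas 2.3.3 made the tables.

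The members and lists were chosen with earlier results of these data known. Named are members past the threshold, the tissue isoforms with their counterparts, the highest and lowest member of each complex, set core subunits (1 of them is not reported here) and regulators, and for each list up to 4 members past the threshold or the 2 largest. The Atp5c1 pseudogene was set apart from complex V after the names were read, and genes beyond this rule (such as Ndufc1, Ndufb4, the mitochondrially encoded subunits other than ND4L and ND2, Myh6 and Ucp1) were named after their values were seen. Alternatives were other normalizations, filters, probe rules and limma options, blocks for pool number, pool code and slide row, the thresholds of the paper, the authors' table and leaving out each pool. The pool numbers were not taken to pair the samples.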

Additional observations from a re-analysis of the deposited data

Results flagged for a closer look

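Among 31 named members with 2 groups each, 9 groups of 4 pools had a lowest or highest pool whose gap to its neighbour was too large for the range of the group by Dixon's test at 95%, where chance gives about 1 group in 20. Young replicate 5 was the low pool for Cox7b (3.27, next 3.71), Atp5g2 (5.21, next 5.49) and Uqcr11 (4.43, next 4.87). Aged replicate 4 was the low pool for Cox6a2 (-1.34, next -0.52) and Sdha (3.39, next 3.52). Aged replicate 3 was the low pool for Atp5a1 (6.03, next 6.14). Aged replicate 1 was the high pool for Cox7b2 (-1.97, next -3.09), aged replicate 2 for Atp5c1 (5.41, next 5.27) and young replicate 3 for Atp5a1 (6.22, next 6.15). The gaps of Atp5a1, Atp5c1 and Sdha are small on the log2 scale beside those of Cox6a2 and Cox7b2.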

How the results depend on the processing

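Cox7a1 was lower in aged cMSCs in every fit run, with log2 fold changes from -0.89 to -0.66, and it was the single member counted as lower wherever 1 is given. With no filter on dim probes the number of members lower in aged pools was 0 (Cox7a1 adjusted p 0.0787), with more genes in the adjustment. The replicate block of shared pool numbers, on 6 pools, left 0 lower and 0 higher members (Cox7a1 adjusted p 0.156, against 0.0415 for the same 6 pools without a block, a fit added after seeing the data), and the pool code as a replicate block on all 8 pools also left 0 lower and 0 higher (0.0849). Deviations of same-numbered pools correlated from -0.269 to 0.18, so that the numbers were not taken to pair the samples. So few pairs cannot exclude a pairing. Leaving out each pool gave 0 to 1 lower and 0 higher members. The number of higher members was 1, Cox6b2, after quantile normalization, normexp background correction, in the authors' log2 table and at the thresholds of the paper. The median of the muscle isoforms was -0.50 and ranged from -0.60 to -0.27 over the fits without a pool, with -0.27 without aged replicate 4. As the middle of 3 values it is that of Cox6a2, which passed in 0 of these 8 fits. Cox8b had values from 0.006 to 0.21 in the same fits. The median of the ubiquitous subunits ranged from -0.08 to 0.0038 over these fits, turning positive without aged replicate 4, and was -0.07 after scaling to the median, which shifted all genes by -0.04, and -0.10 on the 6 pools with shared numbers. Cox8b was -0.07 on those 6 pools. The 31 named members under 22 alternatives gave 672 values on the same side of the threshold and within the spread between pools, 7 of Cox7a1 with an adjusted p above 0.05 and 3 of Cox6b2 with one below. With 4 pools a group, the standard error of a ubiquitous subunit had a median of 0.09 on the log2 scale. The cause of these shifts was not tested where no number of genes or pools shows it.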
